A study of Mus musculus with 2 samples.

Results

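Cholesterol synthesis, uptake and sterol sensing were followed through 28 genes, picked by symbol from the 54532 genes of the deposited table. RAW264.7 cells, which behave much like macrophages, descend from a mouse tumour. Both cultures were exposed for 3 h to 100 ng/ml lipopolysaccharide (LPS), a bacterial outer-membrane component that activates Toll-like receptor 4, and RNA sequencing counted their transcripts. One culture was labelled RNF138 knockout and the other wild type, and the sources used here do not say how the knockout was made or whether it is 1 clone. Each group held 1 library, so no difference below has a replicate check, and every interval is a 95% interval of counting error only. No molecular identifiers are described, so PCR copies of 1 molecule may each have been counted and the true counting error may be wider. No unstimulated culture was analysed here, and none of the values measures a response to LPS.

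Animal cells build cholesterol from acetyl-CoA through mevalonate, the isoprenoid diphosphates, squalene and lanosterol. The membrane-bound transcription factors SREBP1 and SREBP2 switch the genes of this route on when the endoplasmic reticulum runs short of sterol. SCAP escorts them to the Golgi for cleavage, and INSIG proteins hold SCAP back when sterol is plentiful. In macrophages cholesterol also arrives with lipoproteins and engulfed cells, leaves lysosomes through NPC1 and NPC2, and is stored as esters.

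The knockout-labelled library held 19032311 counts and the wild-type-labelled library held 15573989. Rnf138, the targeted gene, had 4764 counts in the knockout-labelled library and 602 in the wild-type-labelled library. It was thus 6.55-fold higher (6.01 to 7.14) where the label says knockout. Whole-gene counts do not show whether an exon was edited, and because this gene goes against the label every direction below rests on the labels. Of 12 macrophage markers, 11 had at least 10 counts in both libraries, and their summed level was 4509 CPM (counts per 1000000 counts of the library after scaling) in the knockout-labelled library and 3212 CPM in the wild-type-labelled library. With an interval excluding 1, 7 of these markers were higher and 2 lower. Among all genes averaging 10 or more counts, 31.5% were higher and 28.1% lower in this way. Lyz2, which encodes lysozyme, was 2.55-fold higher (2.46 to 2.64), while the macrophage surface marker gene Adgre1 was 3.58-fold lower (3.02 to 4.26) and the Fc receptor gene Fcgr1 was 1.21-fold lower (1.08 to 1.35). Markers of T cells, B cells, fibroblasts and epithelial cells summed to at most 58 counts per list in either library, 55 of which were Lck in the knockout-labelled library. The part of the marker difference in the results below was not tested. In cultures measured in bulk, fewer cells expressing a gene and less RNA per cell cannot be told apart.

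The stretch before the transcription start is shown for 3 members that were among the lowest in the knockout-labelled library (Insig1, Mylip and Hmgcs1) and for 2 that were not lower there (Mvk and Mvd), because SREBPs are known to act at such promoters together with the CCAAT-binding factor NF-Y. The sequences come from RefSeq promoter windows on GRCm38.p6, cut at the RefSeq start or, where the deposited gene begins before it, at that gene's start, and run 5′ to 3′ along the gene's strand. Capitals mark the sterol regulatory element TCACNCCAC and the CCAAT box, which reads as its reverse complement where it lies on the other strand.
Insig1, chr5:28071162-28071362, plus strand: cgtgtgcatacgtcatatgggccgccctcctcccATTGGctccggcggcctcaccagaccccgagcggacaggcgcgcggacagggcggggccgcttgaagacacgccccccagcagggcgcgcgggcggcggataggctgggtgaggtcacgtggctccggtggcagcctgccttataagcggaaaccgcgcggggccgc
Mylip, chr13:45389492-45389741, plus strand: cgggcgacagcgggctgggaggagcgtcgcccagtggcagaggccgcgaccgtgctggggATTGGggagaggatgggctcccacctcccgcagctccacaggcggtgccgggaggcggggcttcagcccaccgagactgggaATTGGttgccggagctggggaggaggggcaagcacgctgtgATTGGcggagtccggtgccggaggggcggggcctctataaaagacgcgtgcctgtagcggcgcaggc
Hmgcs1, chr13:119690101-119690350, plus strand: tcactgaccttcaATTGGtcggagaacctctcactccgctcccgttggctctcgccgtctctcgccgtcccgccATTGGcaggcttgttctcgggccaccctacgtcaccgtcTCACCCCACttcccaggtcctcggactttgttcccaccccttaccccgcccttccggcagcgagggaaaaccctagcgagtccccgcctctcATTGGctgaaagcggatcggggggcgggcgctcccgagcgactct
Mvk, chr5:114444019-114444268, plus strand: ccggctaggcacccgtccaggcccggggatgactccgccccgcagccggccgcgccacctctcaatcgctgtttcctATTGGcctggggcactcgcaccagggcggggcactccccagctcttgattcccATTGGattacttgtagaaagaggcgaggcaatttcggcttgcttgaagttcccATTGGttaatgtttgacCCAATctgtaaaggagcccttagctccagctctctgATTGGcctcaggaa
Mvd, chr8:122443423-122443672, minus strand: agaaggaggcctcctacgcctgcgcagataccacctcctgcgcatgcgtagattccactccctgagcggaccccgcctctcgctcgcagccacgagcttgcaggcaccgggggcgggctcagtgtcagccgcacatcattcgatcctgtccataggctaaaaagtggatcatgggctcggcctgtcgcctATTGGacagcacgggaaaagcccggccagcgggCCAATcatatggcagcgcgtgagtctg

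All 5 stretches hold CCAAT on one strand or the other, and Hmgcs1 alone among them holds a match to TCACNCCAC. Sterol regulatory elements that depart from this string were not searched for.

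Most members were lower in the knockout-labelled library, by modest amounts. A gene was called measured where its counts averaged 10 or more, which held for all 28 members and for 12668 genes of the table. Of these 28, 17 (60.7%) had a ratio below 1 with an interval excluding 1, and 4 (14.3%) had one above 1. Among all measured genes the shares were 28.1% below and 31.5% above. An interval narrows with depth, and of the 4164 protein-coding genes whose mean counts lay between the members' quartiles, 35.6% were below and 33.7% above. The median log2 ratio of the members, knockout-labelled over wild-type-labelled in every ratio here, was -0.39 (quartiles -0.61 and -0.01), beside 0.02 (quartiles -0.26 and 0.35) over all measured genes. Summed over the 28 members, the level was 1969 CPM in the knockout-labelled library and 2558 CPM in the wild-type-labelled library, 1.30-fold lower (1.28 to 1.32).

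Few members were far apart. A size rule asked for at least a 2-fold difference with an interval excluding 1, and 3 of 28 members passed it as lower in the knockout-labelled library (Insig1, Stard4 and Mylip), beside 3.62% of measured genes. Only Tm7sf2 passed it as higher, beside 6.54% of measured genes. At 1.5-fold, 8 members were lower, with Hmgcs1, Idi1, Cyp51, Msmo1 and Dhcr7 added, beside 8.06% of measured genes, and Tm7sf2 was still the single higher one, beside 12.9%. At 4-fold no member was called, beside 1.72% of measured genes higher and 1.01% lower. In the authors' deposited table, whose p-values cannot rest on replicates, the lowest adjusted p of any member was 0.139, that of Insig1.

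**Figure D1:**
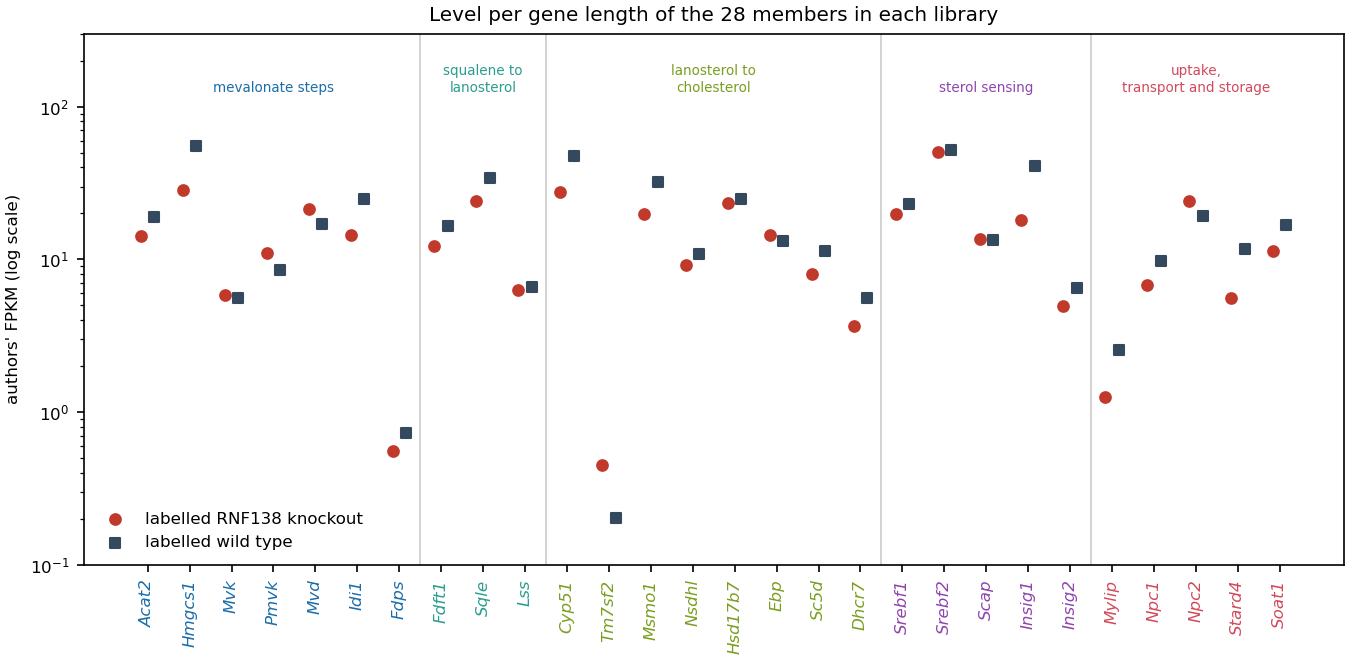
Level of each member per gene length as the authors' FPKM (log axis), in pathway order from left to right, with circles for the knockout-labelled and squares for the wild-type-labelled library. Most circles lie below their squares, Srebf2, Hmgcs1 and Cyp51 are near the top, and Fdps and Tm7sf2 stay under 1 FPKM in both libraries.

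The 7 mevalonate genes, which carry acetyl-CoA to farnesyl diphosphate, were split. Hmgcs1, which condenses acetoacetyl-CoA with acetyl-CoA to HMG-CoA (GRCm38 chromosome 13, 119690379 to 119708260), had 2401 counts (127 CPM) in the knockout-labelled library and 3795 (242 CPM) in the wild-type-labelled library. It was 1.91-fold lower in the knockout-labelled library (1.81 to 2.01). Idi1, the isomerase that interconverts the isopentenyl and dimethylallyl diphosphates (chromosome 13, 8885501 to 8892451), had 929 counts (49.1 CPM) in the knockout-labelled library and 1315 (84.0 CPM) in the wild-type-labelled library, 1.71-fold lower (1.57 to 1.86). Acat2, the cytosolic thiolase of the first step, was lower by a smaller factor, 1.31-fold (1.18 to 1.46), with 663 and 720 counts in the same order of libraries.

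The consecutive kinase and decarboxylase steps in between were not lower. Mvk, which phosphorylates mevalonate (chromosome 5, 114444269 to 114460591), had 285 counts (15.1 CPM) in the knockout-labelled library and 224 (14.3 CPM) in the wild-type-labelled library, a ratio of 1.05 (0.880 to 1.26). Pmvk, which adds the next phosphate, had 343 counts (18.1 CPM) in the knockout-labelled library and 219 (13.99 CPM) in the wild-type-labelled library, a ratio of 1.30 (1.09 to 1.54). For Mvd, the decarboxylase that yields isopentenyl diphosphate (chromosome 8, 122433601 to 122443422), the counts were 723 (38.2 CPM) in the knockout-labelled library and 480 (30.7 CPM) in the wild-type-labelled library, a ratio of 1.25 (1.11 to 1.40). The intervals of Mvk, Pmvk and Mvd lie wholly above those of Hmgcs1 and Idi1. Fdps, the farnesyl diphosphate synthase that closes this stretch, had only 43 counts in the knockout-labelled library and 46 in the wild-type-labelled library, and its ratio of 0.773 (0.498 to 1.20) does not tell the libraries apart at this depth.

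Sequence shared with other genes limits several of these values, and no source used here gives the strand setting of the authors' counting. For Fdps, 26.2% of the 50-base stretches of its annotated transcripts also occur in transcripts of other genes, and Gm3571, a processed pseudogene among them, had 198 counts in the knockout-labelled library and 219 in the wild-type-labelled library, more than Fdps itself. The share was 39.1% for Acat2, with Tcp1 (10401 counts in the knockout-labelled library and 10614 in the wild-type-labelled library) and Acat3 (8 and 11 in that order) among the genes involved. It was 25.3% for Idi1, where the pseudogene Gm13502 had 15 counts in the knockout-labelled library and 14 in the wild-type-labelled library. Hmgcs1 shares 12.1% of its exon length with the antisense gene Gm48342, which had 1 count in each library, and Scap shares 13.2% with 5830462I19Rik, which had 25 in the knockout-labelled library and 10 in the wild-type-labelled library. Fdft1, next in the route, shares 18.3% of its exon length with Ctsb on the opposite strand, a gene with 24402 counts in the knockout-labelled library and 16832 in the wild-type-labelled library. Without the 7 members that share over 10% of their stretches or exon length, 13 of 21 were lower and 3 higher by the interval, with a median log2 ratio of -0.39.

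From squalene to lanosterol, 2 of 3 genes were lower. Sqle, the epoxidase that is a known control point of the route (chromosome 15, 59315077 to 59331192), had 2459 counts (130 CPM) in the knockout-labelled library and 2830 (181 CPM) in the wild-type-labelled library, 1.39-fold lower (1.32 to 1.47). Fdft1, which joins farnesyl units into squalene, was 1.34-fold lower (1.22 to 1.46), with 953 counts in the knockout-labelled library and 1053 in the wild-type-labelled library. Lss, which folds the epoxide into lanosterol, had 1239 and 1068 counts in these libraries and a ratio of 0.960 (0.884 to 1.04), so no difference was detectable beyond counting error.

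Of the 8 genes that turn lanosterol into cholesterol, 5 were lower and 1 was higher by the interval. Cyp51, the lanosterol demethylase (chromosome 5, 4081145 to 4104746), had 2243 counts (118 CPM) in the knockout-labelled library and 3150 (201 CPM) in the wild-type-labelled library, 1.70-fold lower (1.61 to 1.79). Msmo1, a methylsterol monooxygenase (chromosome 8, 64718139 to 64733792), had 2245 counts (119 CPM) in the knockout-labelled library and 2956 (189 CPM) in the wild-type-labelled library, 1.59-fold lower (1.51 to 1.68). The ratios of these oxidases were close, with overlapping intervals. Dhcr7, the reductase that makes cholesterol from 7-dehydrocholesterol, was 1.51-fold lower (1.32 to 1.73), and Sc5d, the desaturase just before it, was 1.41-fold lower (1.27 to 1.56). Nsdhl, the sterol dehydrogenase of C4 demethylation, was closer to even at 1.17-fold lower (1.03 to 1.34).

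Hsd17b7 and Ebp, a ketosteroid reductase and a sterol isomerase of the same stretch, had ratios of 0.954 (0.897 to 1.02) and 1.10 (0.972 to 1.24). Tm7sf2, one of the sterol C14 reductases, went the other way on few reads. It had 46 counts (2.43 CPM) in the knockout-labelled library and 17 (1.09 CPM) in the wild-type-labelled library, 2.24-fold higher (1.26 to 4.17), and Vps51 lies on the same strand over 12.1% of its exon length.

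**Figure D2:**
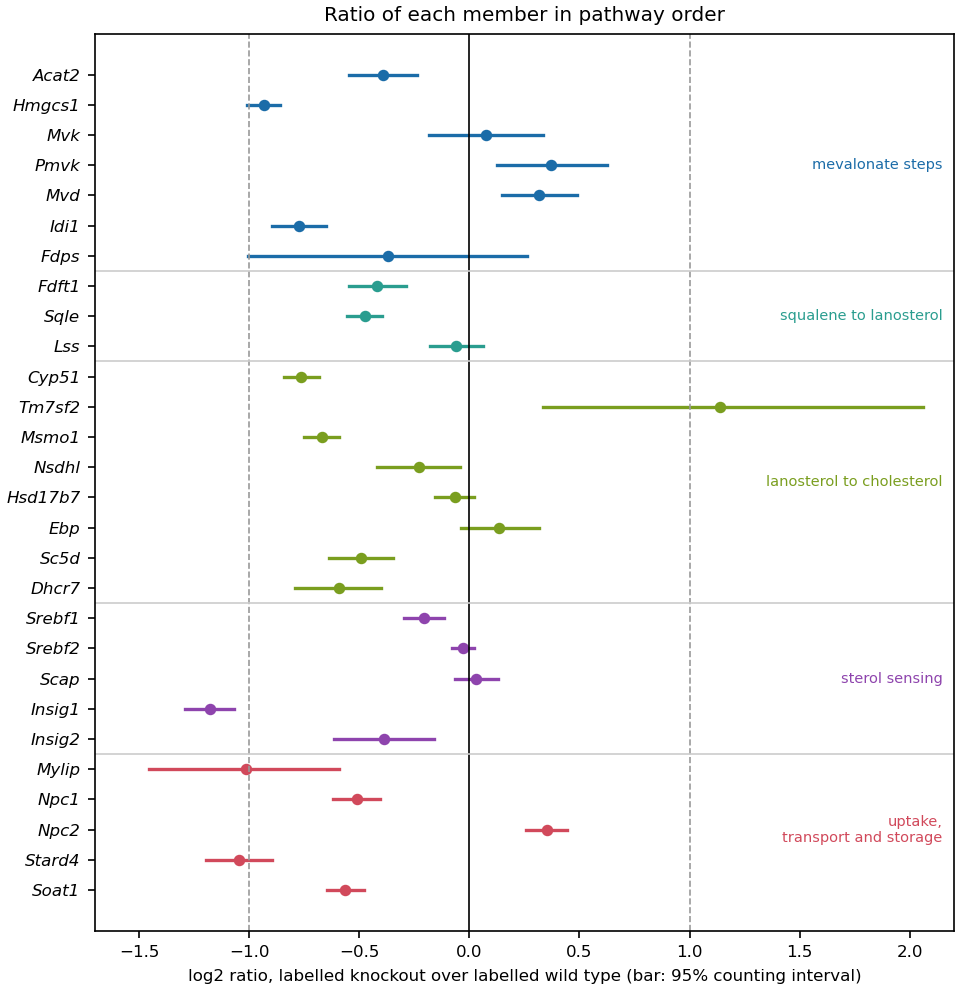
Log2 ratio of each member, knockout-labelled over wild-type-labelled, in pathway order from top to bottom, with bars for the 95% counting interval, a solid line at 0 and dashed lines at 2-fold. Insig1, Stard4 and Mylip lie beyond the lower dashed line, Mvk, Pmvk and Mvd sit at or right of 0 between Hmgcs1 and Idi1, and Tm7sf2 has the widest bar on the right.

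Sterol sensing showed its largest difference in an SREBP-induced inhibitor and little difference in the SREBP genes themselves. Insig1, which retains SCAP in the endoplasmic reticulum and is a known SREBP target (chromosome 5, 28071363 to 28078662), had 1019 counts (53.8 CPM) in the knockout-labelled library and 1908 (122 CPM) in the wild-type-labelled library. It was 2.26-fold lower in the knockout-labelled library (2.10 to 2.44), the lowest ratio of the 28 members, at percentile 2.68 of all measured genes. Insig2, its less abundant paralogue (chromosome 1, 121304353 to 121332589), had 313 counts (16.5 CPM) in the knockout-labelled library and 339 (21.6 CPM) in the wild-type-labelled library, 1.31-fold lower (1.12 to 1.53).

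Srebf2, which encodes SREBP2, the main activator of the cholesterol genes (chromosome 15, 82147181 to 82205379), had 6672 counts (352 CPM) in the knockout-labelled library and 5630 (360 CPM) in the wild-type-labelled library, a ratio of 0.980 (0.946 to 1.02). Scap had a ratio of 1.02 (0.954 to 1.10), with 1845 and 1493 counts in these libraries. Srebf1, whose products favour fatty acid genes, was 1.15-fold lower (1.08 to 1.23). Neither Srebf2 nor Scap differed beyond counting error, and these signs were not stable. Removing the trend with GC content turned the sign of Scap, Mvk and Hsd17b7, and removing the trend with gene length turned that of Srebf2, while no scaling turned any of them. Transcript counts do not show how much SREBP was cleaved, and protein was not analysed here.

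Genes of uptake, lysosomal exit, transport and storage had the lowest median of the 5 groups, a log2 ratio of -0.56, with 4 of 5 lower and 1 higher by the interval. With the GC trend removed it was no longer the lowest, since its median and that of the squalene to lanosterol genes both rounded to -0.50. Stard4, a carrier that moves cholesterol between membranes (chromosome 18, 33199355 to 33213862), had 572 counts (30.2 CPM) in the knockout-labelled library and 977 (62.4 CPM) in the wild-type-labelled library, 2.06-fold lower (1.86 to 2.29). Mylip, a ubiquitin ligase that marks lipoprotein receptors for degradation (chromosome 13, 45389742 to 45412022), had 74 counts (3.91 CPM) in the knockout-labelled library and 124 (7.92 CPM) in the wild-type-labelled library, 2.03-fold lower (1.51 to 2.74). Both sit at the edge of the size rule, and Stard4 fell short of it, at a log2 ratio of -0.97, once the trend with GC content was removed.

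The paired lysosomal exporters stood on opposite sides of 1. Npc1, the membrane transporter, was 1.43-fold lower (1.32 to 1.53), with 1332 counts (70.4 CPM) in the knockout-labelled library and 1571 (100.3 CPM) in the wild-type-labelled library. For Npc2, the soluble partner that hands cholesterol to it, the counts were 2412 (127 CPM) in the knockout-labelled library and 1564 (99.9 CPM) in the wild-type-labelled library, 1.28-fold higher (1.20 to 1.36). Soat1, the enzyme that esterifies cholesterol for storage, was 1.48-fold lower (1.39 to 1.57), with 2033 and 2485 counts in these libraries.

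**Figure D3:**
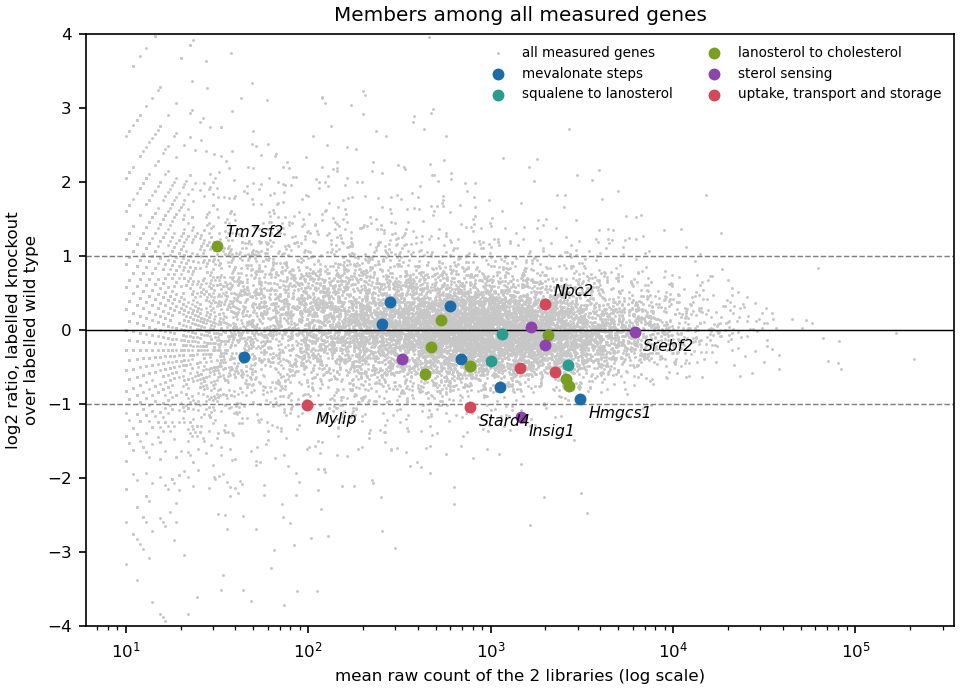
Log2 ratio against mean raw count (log axis) for all measured genes in grey and the members in colour by group, with dashed lines at 2-fold; 61 measured genes lie beyond the plotted range. The members lie within the cloud, mostly in its lower part, and Insig1, Stard4, Mylip and Tm7sf2 are the 4 beyond 2-fold.

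Levels between genes can be compared only per length, for which the authors' FPKM serve. In the knockout-labelled library Srebf2 (50.7 FPKM), Hmgcs1 (28.6 FPKM) and Cyp51 (27.8 FPKM) led the members, and in the wild-type-labelled library Hmgcs1 (54.9 FPKM), Srebf2 (52.1 FPKM) and Cyp51 (47.4 FPKM) did. Hmgcs1 thus came below Srebf2 in the one and above it in the other. Insig1 stood at 17.999 FPKM in the knockout-labelled library and 41.0 FPKM in the wild-type-labelled library. Insig2 was lower than Insig1 in both, at 4.92 FPKM in the knockout-labelled library and 6.49 FPKM in the wild-type-labelled library. At the low end Tm7sf2 had 0.449 FPKM in the knockout-labelled library and 0.202 FPKM in the wild-type-labelled library.

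Genes next to the route were counted in 5 further lists. None of 14 genes of the isoprenoid branches, which feed dolichol, ubiquinone and protein prenylation, was 2-fold apart by the size rule. The list's median log2 ratio stood at -0.08, with 6 genes lower and 2 higher by the interval. Nus1, a subunit of the dolichol-forming prenyltransferase, and Zmpste24, a protease of prenylated proteins, had the most counts per library total, with no regard to length, and were 1.13-fold (1.08 to 1.19) and 1.10-fold (1.04 to 1.17) lower. Among 17 genes for SREBP cleavage and sterol-regulated degradation, 5 were lower and 5 higher by the interval, with a median of -0.01. In this list 1 gene was higher and none lower by the size rule. That gene was Rnf5, a membrane-bound ubiquitin ligase, with 495 counts in the knockout-labelled library and 116 in the wild-type-labelled library, 3.53-fold higher (2.88 to 4.36). Antisense Gm20463 covers 24.7% of the exon length of Rnf5 and had 0 counts in both libraries. The pseudogene Gm18101, which shares sequence with Rnf5, had 8 counts in the knockout-labelled library and 5 in the wild-type-labelled library. The part of this sharing in the value of Rnf5 was not tested.

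The list nearest to the members by median was lysosomal and non-vesicular sterol traffic, at a log2 ratio of -0.45 over 15 genes. Of these, 10 (66.7%) were lower and 3 higher by the interval. Past the size rule and higher was Gramd1b, which carries plasma-membrane cholesterol to the endoplasmic reticulum. It had 2360 counts in the knockout-labelled library and 932 in the wild-type-labelled library, 2.09-fold higher (1.94 to 2.26). With the trend in GC content removed, 0 genes of the list passed the rule as higher.

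Fatty acid genes that SREBPs also drive had a median of -0.16 over 12 measured genes of 13. Of these 12, 7 (58.3%) were lower and 1 (8.33%) higher by the interval, beside 60.7% and 14.3% of the members. Past the size rule and lower was Lpin1, a phosphatidate phosphatase gene, with 23 counts in the knockout-labelled library and 145 in the wild-type-labelled library, 7.62-fold lower (4.89 to 12.4). Scd2, a fatty acid desaturase gene, lay just short of the limit at 1.99-fold lower (1.87 to 2.12), and 2 genes of the list passed as lower under each of the other scalings and with the GC trend removed. With a minimum mean count of 100, which Lpin1 does not reach, 0 passed. Of 8 genes for oxysterol synthesis and the oxysterol receptor LXR, 5 were measured, with a median of 0.09. Past the rule and higher were Nr1h3, which encodes LXR alpha, at 2.03-fold (1.32 to 3.19), with 76 counts in the knockout-labelled library and 31 in the wild-type-labelled library, and the cholesterol exporter gene Abca1 at 2.08-fold (1.37 to 3.22), with 83 counts in the knockout-labelled library and 33 in the wild-type-labelled library. Of this list 1 gene passed as higher with the length trend removed, 1 with the GC trend removed and 0 with a minimum mean count of 100. By the interval 2 measured genes of the list were higher and 1 was lower. The lower one was Abcg1, with 393 counts in the knockout-labelled library and 479 in the wild-type-labelled library, 1.47-fold lower (1.29 to 1.69). Mylip, like Abca1 a known LXR target, also lay below 1.

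**Figure D4:**
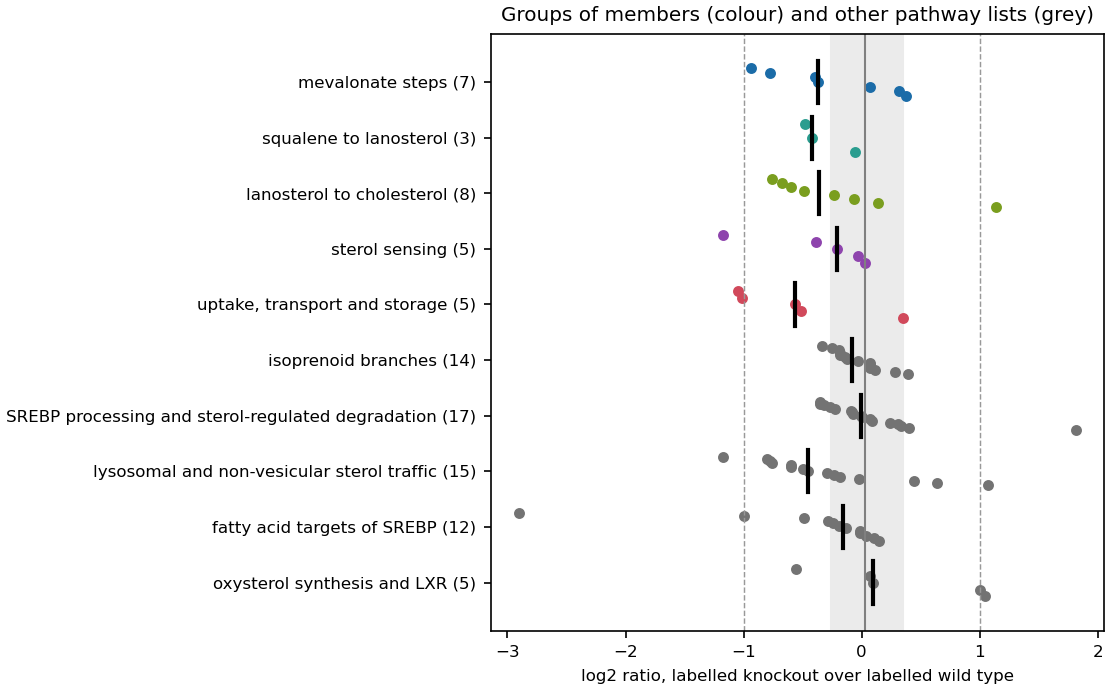
Log2 ratio of every measured gene in the 5 groups of members (colour) and 5 further lists (grey), with the number measured in brackets, black bars for medians, and the shaded band and line for the quartiles and median of all measured genes. The median bars of 4 groups of members and of the sterol traffic list lie left of the band; the sterol sensing bar, at -0.20, and those of the other lists lie within it.

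Low GC content went with low ratios among the members. Spearman's rho between the log2 ratio and the GC content of the longest annotated transcript was 0.64 across the 28 members, which share 2 libraries and are not independent, and 0.17 across all measured genes with a value. The GC content of the members ran from 41.9% to 59.1%, with a median of 49.2%, against 49.3% over measured genes. Idi1, Hmgcs1 and Stard4 were at the low end of both scales, and Mvd, Pmvk and Scap were at the high end of GC content. Other members departed from this order. Hsd17b7, at 43.9% GC, had a ratio of 0.954, and Srebf1, at 58.4% GC, was 1.15-fold lower. Removing the trend fitted over all measured genes left the members' median log2 ratio at -0.41, with 18 lower and 4 higher by the interval. The part of GC content in the single ratios was not tested further. Gene length had a rho of -0.12 across the members and of -0.12 across all measured genes.

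**Figure D5:**
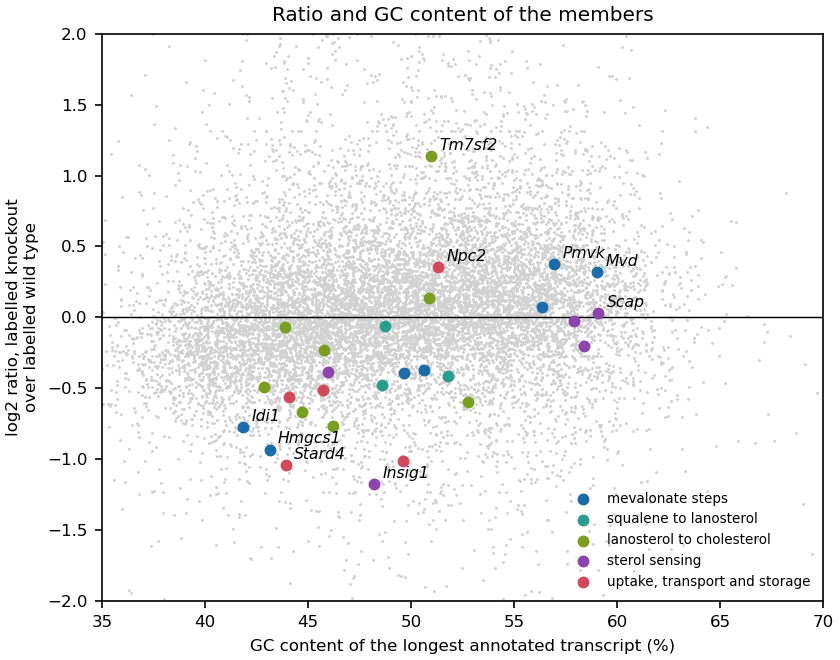
Log2 ratio against GC content of the longest annotated transcript, members in colour by group and all measured genes in grey, with genes outside the axes not shown. The lowest members, Insig1 (48.2% GC), Stard4 (43.9% GC), Mylip (49.6% GC) and Hmgcs1 (43.1% GC), lie left of Mvd, Pmvk and Scap.

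The promoter windows were searched for fixed motifs on both strands, in 250 bases before and 50 after the start. RefSeq windows were found for 23 members, and no window was found here for Fdps, Fdft1, Sqle, Npc1 and Stard4. The comparison was with all genes that have a window, whether or not they were measured here, and shares among measured genes alone were not computed. CCAAT occurred in 21 of 23 members (91.3%) and in 41.1% of all genes with a window. The GC box GGGCGG occurred in 22 (95.7%) and in 38.2%, and the E-box CACGTG in 5 (21.7%) and in 8.09%. TCACNCCAC was found in Hmgcs1 alone (4.35%), against 1.44% of all genes, starting 137 bases before the start. A motif for the interferon-stimulated response element occurred in Ebp alone (4.35%), against 3.99% of all genes, and one for NF-kappaB in 10 (43.5%) and in 22.9%. CCAAT occurred in members on both sides of 1, from Insig1 at a log2 ratio of -1.18 to Tm7sf2 at 1.14. These are matches of letters, not measured binding, and some genes have several windows.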

How the data were processed

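Raw read counts per gene were deposited by the authors for 1 library per group. Per the submitters' processing notes, the build was GRCm38 (mm10) and the tools were featureCounts 1.5.0-p3, HISAT2 2.0.5 and CASAVA 1.8, with no roles stated. The deposited FPKM values divide counts by gene length and library size. The authors also deposited a signal of scaled counts, log2 fold changes and p-values, but no source used here names their tool, the strand setting or the annotation release.

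Counts were scaled by TMM (edgeR 4.0.16, R 4.3.3), with factors of 0.995 for the knockout-labelled and 1.01 for the wild-type-labelled library. No edgeR or DESeq2 test was run, since 1 library per group gives no spread. Intervals of ratios are exact Clopper-Pearson intervals given the summed counts. Counting error, as the exact Poisson bound farther from the value, was 21.6% at 100 counts and 6.40% at 1000 counts. Log2 ratios have 0.5 counts added. Shared sequence, GC content and exon overlap came from GENCODE M21, on the same build. The ratio procedure was tested on simulated counts that varied by counting error only, as the intervals assume. That test cannot show how the ratios behave under spread between cultures.

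The members, lists and rules were chosen with earlier results of these data known. Named genes were all members and, of each further list, up to 3 past the size rule with the largest ratios, or else the 2 most abundant by mean CPM. Scd2 and Abcg1 were named besides. Some genes of the pathway are not reported here. Alternatives were upper-quartile, total-count and DESeq2 1.42.0 scaling, count minimums, fold limits, added counts, means, FPKM, and removal of a trend in GC content or in length. The alternative without members that share sequence was added after the data were seen.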

Additional observations from a re-analysis of the deposited data

How the results depend on the processing

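No paired analysis was possible because each group had 1 library, and for the same reason no replicate could be left out. Under the other scalings and with the length or GC trend removed, the count of members lower by the interval was 17 or 18 and the count higher was 4, and the median log2 ratio of the members ran from -0.41 to -0.40, beside -0.39 as reported. A mean in place of the median gave -0.31, and FPKM plus 1 gave -0.36. Counts past a limit follow the limit itself. At 1.5-fold 8 members were lower, at 4-fold 0 were lower and 0 higher, and with the whole interval beyond 2-fold 1 was lower and 0 higher. With a minimum mean count of 100, 0 members passed the size rule as higher and 2 as lower, because Tm7sf2 and Mylip drop out. Without the members that share sequence, 0 passed it as higher and 3 as lower. By the interval 3 members were higher under each of these settings. The median of the sterol sensing genes was -0.30 with the GC trend removed and -0.35 as a mean, and that of the mevalonate genes was -0.16 with a minimum mean count of 100 and -0.15 with FPKM plus 1, both within the quartiles of all measured genes. The mean of the lanosterol to cholesterol genes was -0.19. The summed level without Srebf2 had a log2 ratio of -0.44. Of the values for single genes, further lists and motifs, 282 stayed within counting error or 1.5 times and 24 moved; the causes were not tested. A comparison of the INSIG and SREBP proteins was not run. Depth limits Fdps, Tm7sf2 and Mylip most.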
